A study of Mus musculus with 2 samples.

Results

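Class II Mgl2-low cells were synovial myeloid cells whose RNA held the MHC class II chains but little or no Mgl2, the gene of the lectin CD301b. They were chosen by UMIs (unique molecular identifiers, each standing for 1 captured RNA molecule) in each cell. A cell needed at least 10 UMIs of H2-Aa, H2-Ab1 and H2-Eb1 together and fewer than 3 of Mgl2. It also needed fewer than 3 UMIs of Pf4, fewer than 5 of Vsig4, fewer than 4 of Aqp1 and Fxyd2, fewer than 4 of Treml4, Ace, Adgre4 and Eno3, and fewer than 3 of Top2a and Mki67. Of 2847 cells that passed the quality filters, 191 met the rule. At day 7 they were 81 of 1210 cells (6.69%, exact binomial 95% interval 5.35% to 8.25%), and at steady state 110 of 1637 cells (6.72%, 5.55% to 8.04%). The shares lay within each other's intervals, and because the rule reads measured RNA they are a description.

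Host mice (CD45.2, B6) had been given CD45.1 B6 bone marrow with the ankle shielded, so that synovial cells of host and donor descent could both be present. The day 7 after Clo-lip group had received 200 µL of clodronate liposomes, a phagocyte-depleting agent, retro-orbitally 7 days earlier. The steady state group had no treatment. From the ankle synovium of both groups, CD45+ CD11b+ cells were sorted that lacked staining for Ly6C, CD177, MHCII, CD64, Ly6G and SiglecF. RNA and 92 barcoded antibodies were then read together in single cells (CITE-seq). Each group was 1 library, and the number of animals behind a library is not given in the labels, so no comparison has a replicate check and no p-value is given. Intervals of ratios and shares are 95% intervals of counting error alone.

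The libraries held 10983657 UMIs at day 7 and 17169755 UMIs at steady state, with medians of 8309 and 9569 UMIs per cell. Class II Mgl2-low cells had medians of 9393 UMIs and 2764 genes at day 7, against 8637.5 UMIs and 2399.5 genes at steady state. No cell barcode was shared between the libraries. Scrublet called 10 doublets at day 7 and 6 at steady state, of which 1 and 0 were class II Mgl2-low cells, and they were kept in the values that follow.

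MHC class II molecules are pairs of an alpha and a beta chain that show peptides to CD4 T cells. The invariant chain Cd74 holds the peptide groove until proteases of the endosome degrade it, and H2-DM then exchanges its last fragment for an antigenic peptide. Transcription of the whole set runs through the coactivator Ciita, which does not bind DNA itself but is recruited by RFX, CREB and NF-Y proteins at a conserved row of promoter elements. Classical Ly6C+ monocytes that enter tissues can gain MHC class II while losing Ly6C, and Cd209a, Irf4 and Clec10a are genes of class II-bearing dendritic cells of the type 2 lineage and of monocyte-derived cells.

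Promoters of class II genes are shown because the results turn on the RNA of these genes; H2-Aa and H2-Eb1 are read by the rule and H2-DMb1 is not. The windows cover bases 100 to 37 before the start of each gene in RefSeq (GRCm38.p6), 5′ to 3′ on the gene's strand. They lie at chr17:34287860-34287923 (minus strand) for H2-Aa, chr17:34305767-34305830 (plus) for H2-Eb1 and chr17:34153091-34153154 (plus) for H2-DMb1. Capitals mark an X box (GNNACNNAT), an X2 box (TGACGTCA) or a Y box (GATTGG).
H2-Aa: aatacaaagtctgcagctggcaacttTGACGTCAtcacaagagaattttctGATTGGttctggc
H2-Eb1: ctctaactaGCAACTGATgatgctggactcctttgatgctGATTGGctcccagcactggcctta
H2-DMb1: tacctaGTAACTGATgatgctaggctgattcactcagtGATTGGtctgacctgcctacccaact
Among 32851 RefSeq promoters of 250 bases before to 50 bases after the start, searched on both strands, the X box letters occurred in 25.3%, the X2 box letters in 1.79% and the Y box letters in 16.1%. A Y box together with an X or X2 box occurred in 1654 of them (5.03%). These are matches of letters and not measured binding sites.

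The surface readout rests on antibody barcodes of 15 bases, counted beside the RNA. The pair used below to describe the surface of these cells is shown, I-A/I-E being the mouse MHC class II molecules and Ly6C an antigen of classical monocytes. The rule reads RNA and neither antibody.
I-A/I-E antibody barcode: GGTCACCAGTATGAT
Ly6C antibody barcode: AAGTCGTGAGGCATG

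The values that chose the cells spread widely. At day 7 the class II chains gave a median of 29 UMIs per class II Mgl2-low cell, with an interquartile range of 20 to 48 and a full range of 10 to 276. At steady state the median was 64.5 UMIs, the interquartile range 27.5 to 131 and the full range 10 to 344. Mgl2 had no UMI in 81 of 81 cells at day 7 and in 99 of 110 at steady state. Close to the class II threshold, 6 cells at day 7 and 8 at steady state held 10 to 12 class II UMIs and were members, with median I-A/I-E antibody counts of 1 and 43.5. Just outside it, 10 and 9 cells held 7 to 9 class II UMIs, with median antibody counts of 3.5 and 5. Close to the Mgl2 threshold, 11 steady-state cells held 1 or 2 Mgl2 UMIs and were members (median I-A/I-E count 158), and 8 cells held 3 or 4 and were not (127.5). At day 7 no cell lay in either of these Mgl2 bands.

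These cells were compared with a pair of neighbouring sets of cells, called gates here, that were drawn with the same exclusions. Ly6c2 monocytes had at least 5 UMIs of Ly6c2, a gene of the Ly6C antigen, and fewer than 10 class II UMIs. They numbered 348 at day 7 and 88 at steady state, with medians of 9253 and 9419.5 UMIs per cell. Mgl2 cells passed the class II threshold and had at least 3 Mgl2 UMIs. There were 0 of 1210 at day 7, which allows a share of up to 0.248% (3 counts of the total; exact upper bound 0.304%), and 20 of 1637 at steady state, with a median of 10691 UMIs. Without the other exclusions, 8 cells at day 7 and 112 at steady state had both class II and Mgl2. Many class II cells of steady state failed another exclusion. Of 115 cells over the class II threshold at day 7, 12 had 3 or more Pf4 UMIs and 13 had 4 or more of Aqp1 and Fxyd2, against 149 and 150 of 355 at steady state. Comparisons with Mgl2 cells were therefore possible at steady state alone. Differences in the class II chains, Mgl2 and Ly6c2 between these gates are set by the gates.

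The I-A/I-E antibody, which the rule did not read, stained class II Mgl2-low cells in both libraries, although the sort was set to leave out cells staining for MHCII. The median count per cell was 24 at day 7 (interquartile range 11 to 43, highest 132) and 106 at steady state (42.75 to 167.25, highest 999). Ly6c2 monocytes had a median of 1 count in each library, and the 20 Mgl2 cells had a median of 133. At least 10 I-A/I-E counts were found on 75.3% of class II Mgl2-low cells at day 7 and 92.7% at steady state, against 1.15% and 6.82% of Ly6c2 monocytes. Across class II Mgl2-low cells, class II RNA and I-A/I-E antibody, each scaled to the cell's total, had a Spearman correlation of 0.71 at day 7 (n = 81 cells) and 0.72 at steady state (n = 110 cells). For Cd74 RNA and the CD74 antibody, whose counts were near 0, the correlations were -0.07 and -0.04. The cells of a correlation share a library, and these values are a description.

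Ly6C staining of class II Mgl2-low cells lay below that of Ly6c2 monocytes. The monocyte gate demands Ly6c2 RNA, so that difference partly follows from the gate. Of the class II Mgl2-low cells, 40 of 81 at day 7 and 24 of 110 at steady state also held 5 or more Ly6c2 UMIs. Collagen-rich cells (20 or more UMIs of Col1a1, Col1a2 and Col3a1), nearly all without Ly6c2 RNA, had median Ly6C counts of 14.5 at day 7 and 6 at steady state. The median Ly6C count was 37 (interquartile range 23 to 57) on class II Mgl2-low cells and 53 on Ly6c2 monocytes at day 7, and 10 (2 to 36.75) against 57 at steady state. Mgl2 cells had a median of 1.5. The steady-state median of class II Mgl2-low cells lay between those of the Ly6c2 monocytes and the Mgl2 cells. Day 7 had no Mgl2 cells, and its class II Mgl2-low median lay nearer that of the monocytes. CD43, a sialoglycoprotein of leukocytes, followed the same order at steady state, with a median of 75 on class II Mgl2-low cells, 139.5 on Ly6c2 monocytes and 15.5 on Mgl2 cells. At day 7 the CD43 medians were 85 and 110. CD54, the adhesion molecule ICAM-1, was in the opposite order, with medians of 9 and 5 at day 7, and 15 and 6 at steady state, on class II Mgl2-low cells and Ly6c2 monocytes, and 33.5 on Mgl2 cells. The CD301b antibody, against the product of Mgl2, had medians of 1 at day 7 and 0 at steady state on class II Mgl2-low cells and 2 on Mgl2 cells, a difference of 1 or 2 counts. On Ly6c2 monocytes its medians were 1 at day 7 and 1.5 at steady state.

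**Figure D1:**
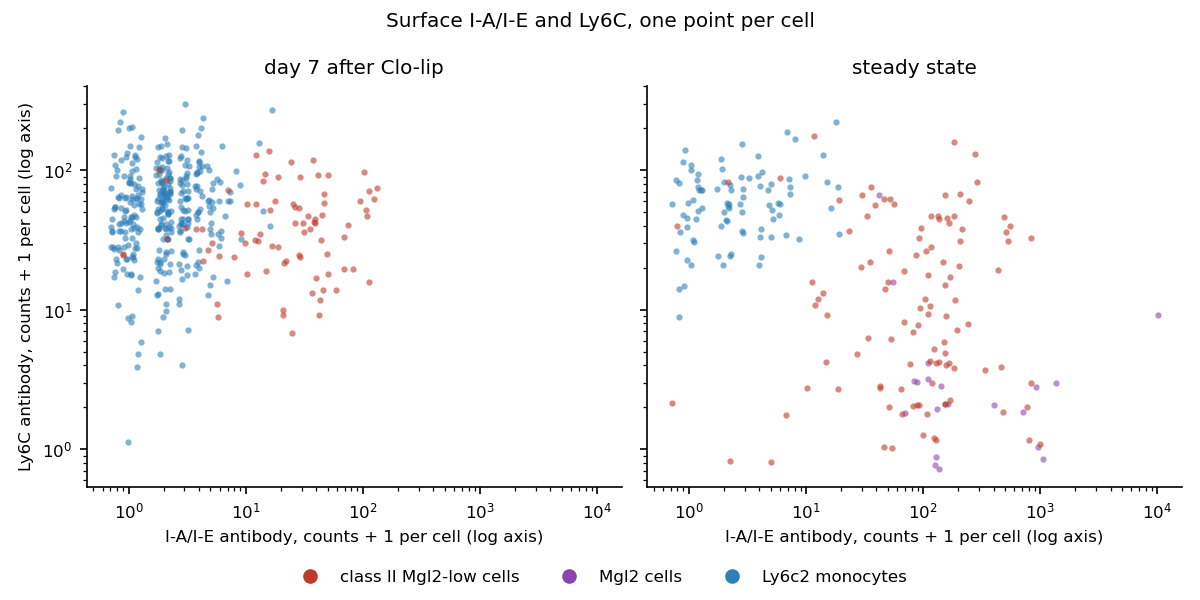
Antibody counts per cell plus 1 on logarithmic axes, I-A/I-E (MHC class II) across and Ly6C up, with day 7 on the left and steady state on the right; each point is a cell, jittered, and colours mark the gates. Most class II Mgl2-low cells lie to the right of the Ly6c2 monocytes, with median I-A/I-E counts of 24 at day 7 and 106 at steady state, against 1 and 1, and at steady state they run down to the low Ly6C counts of the Mgl2 cells.

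Nearly all class II Mgl2-low cells that were assigned an origin carried the donor form of CD45. With origin called from the CD45.1 and CD45.2 antibodies, 80 of 81 cells at day 7 (98.8%, 93.3% to 99.97%) and 102 of 103 assigned cells at steady state (99.0%, 94.7% to 99.98%) were donor-class. A further 7 steady-state cells were not assigned. Median counts were 14 of CD45.1 and 1 of CD45.2 at day 7, and 36 and 1 at steady state. All other cells of the libraries were donor-class in 87.9% at day 7 and 46.2% at steady state. With a fixed threshold of 5 antibody counts the shares were 97.4% and 95.2% in class II Mgl2-low cells, and 78.7% and 42.4% in all others. The calls differed for collagen-rich cells of steady state, where the main method placed 29 of 32 assigned cells in the donor class and the fixed threshold 1 of 8. Ly6c2 monocytes were donor-class in 97.0% and 98.9%, and the Mgl2 cells in 20 of 20. The cells carry the label monocyte-derived; the antibodies place them on the donor side, and the precursor they came from was not measured.

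Against Ly6c2 monocytes of the same library, class II Mgl2-low cells had more RNA of class II loading genes and of a small set of dendritic and lectin genes, and less of classical monocyte genes. Levels are UMIs per 1000000 of the gate's summed UMIs (CPM), and a gene was called where it was at least 20 CPM in either gate and at least 2-fold apart. At day 7, 168 of 5784 genes (2.9%) were called higher and 175 (3.03%) lower, with a median log2 ratio of 0.00 over all genes. At steady state 311 of 5551 (5.6%) were higher and 269 (4.85%) lower, with a median of -0.06. Of 5206 genes compared in both libraries, 70 were higher and 47 lower in both.

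Of the 10 listed class II loading and processing genes, 4 of 6 compared were higher at day 7 and 5 of 7 at steady state, with list medians of 1.46 and 1.47 (log2) and none lower. The chains of the rule and Cd74 come from the cells that the rule selected for class II RNA, so their excess describes the selection. Cd74, the invariant chain, had 7516 CPM in class II Mgl2-low cells and 512 CPM in Ly6c2 monocytes at day 7 (log2 ratio 3.88, 3.80 to 3.95). At steady state it had 18522 and 702 CPM (4.72, 4.61 to 4.84). H2-DMb1, the beta chain of the peptide exchanger, had 446 and 59.7 CPM at day 7 (2.90, 2.65 to 3.16) and 840 and 108 CPM at steady state (2.96, 2.65 to 3.28). Its partner H2-DMa was 1.49 higher at day 7 and 1.47 higher at steady state (log2). Lgmn, an asparaginyl endopeptidase of the endosome, was 1.43 and 1.04 higher. The other loading genes differed less. Ctss, the cathepsin that trims the invariant chain, had log2 ratios of 0.25 and -0.17, and H2-Ob, a chain of the DM inhibitor H2-DO, reached only 3 UMIs at day 7 and 7 at steady state in all class II Mgl2-low cells together.

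Of 9 listed class II regulators, Ciita alone was called, in both libraries, among 7 compared; the list median was -0.14 in each. Ciita had 63.4 CPM in class II Mgl2-low cells and 5.21 CPM in Ly6c2 monocytes at day 7 (log2 ratio 3.61, 2.79 to 4.49), and 73.6 and 5.69 CPM at steady state (3.69, 2.40 to 5.36). Rfxap, a subunit of the RFX complex, had log2 ratios of -0.55 (-1.52 to 0.30) and -0.14 (-1.07 to 0.79). Across single cells Ciita followed class II RNA weakly, with Spearman correlations of 0.18 at day 7 and 0.12 at steady state, in counts that are sparse. None of 9 compared class I presentation genes was called in either library, with list medians of 0.27 and -0.16. That count is near the share over all genes. At day 7 2.9% were called higher and 3.03% lower, and at steady state 5.6% and 4.85%.

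Of the marker genes given for these cells, H2-Aa is part of the rule. Of the other 5 (H2-DMb1, Cd74, Ciita, Batf3 and Fabp5), 4 were higher than in Ly6c2 monocytes in both libraries. H2-DMb1, Cd74 and Ciita belong to the class II pathway, and these gates were split on class II RNA. Their excess cannot be told apart from the selection and is a description. Batf3, a transcription factor of type 1 dendritic cells that monocyte-derived cells also use, had 74.8 and 35.8 CPM at day 7 (log2 ratio 1.06) and 103 and 31.9 CPM at steady state (1.69). Fabp5, a fatty acid carrier, was the remaining gene and differed in direction between the libraries: 280 and 154 CPM at day 7 (0.87, 0.63 to 1.10), against 211 and 403 CPM at steady state (-0.93, -1.19 to -0.68). That sign change lay mostly in the monocytes, whose Fabp5 was 1.39 lower at day 7 than at steady state (log2), while class II Mgl2-low cells were 0.41 higher. The difference between these ratios was not tested.

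Type 2 dendritic genes were higher in 4 of 7 compared in each library, with medians of 1.43 and 1.68. Cd209a, a DC-SIGN family lectin, had 43.1 CPM in class II Mgl2-low cells and 0.919 CPM in Ly6c2 monocytes at day 7 (log2 ratio 5.55, 3.88 to 7.90), the monocyte value resting on 3 UMIs. At steady state it had 140 and 11.4 CPM (3.62, 2.69 to 4.71). Irf4, a transcription factor of that lineage, was 1.84 and 2.85 higher, and the lectin gene Clec10a 1.48 and 2.02 higher. Dpp4, a peptidase of dendritic cells, was 1.56 and 1.64 higher. Flt3, the receptor that conventional dendritic cells need, had 33.0 and 14.1 CPM at day 7 (log2 ratio 1.23, 0.47 to 1.95) and 33.6 and 10.2 CPM at steady state (1.71, 0.61 to 2.97). Zbtb46, a transcription factor of the conventional lineage, had 1 UMI at day 7 and 3 at steady state in class II Mgl2-low cells and none in Ly6c2 monocytes, and Xcr1 had 0 UMIs in both class II Mgl2-low sets. Ccr7, the receptor of migrating dendritic cells, had 2 and 0 UMIs. No dendritic name is given to these cells.

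Other genes far above the monocytes in both libraries included Mrc1, the mannose receptor CD206 (98.9 CPM at day 7, log2 ratio 2.72, and 124 CPM at steady state, log2 ratio 3.97). Ccnd1, cyclin D1, had 67.2 and 1.84 CPM at day 7 and 60.7 and 2.28 CPM at steady state, the last from 2 UMIs (log2 ratio 4.74, 2.82 to 7.82). Klrd1, the lectin CD94 of natural killer cells and some dendritic cells, had 26.6 and 3.37 CPM at day 7, and 83.4 and 1.14 CPM at steady state, the last from 1 UMI (6.20, 3.67 to 11.52). Cd7 had 24.1 CPM and, from 1 UMI, 0.306 CPM at day 7 (log2 ratio 6.30, 3.64 to 11.67). At steady state it had 71.5 and 0 CPM, at least 20.9-fold higher with the empty monocyte gate set to 3 UMIs. Listed T and NK genes summed to 26 UMIs at day 7, of which 18 in 1 cell, and 6 at steady state. Slamf7 and the lectin gene Clec4b1 were 2.43 and 2.12 higher at day 7, and 2.65 and 2.21 higher at steady state (log2). Tnfsf9, the ligand 4-1BBL, was 2.15 and 2.78 higher, and was the co-stimulatory gene called in both libraries; Cd86 had log2 ratios of 0.36 and 0.19. Spp1 was also among the leading genes by the naming rule, but 1 cell held 96.7% of its UMIs at day 7 and 1 cell 98.0% at steady state.

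Classical monocyte genes were lower in 4 of 10 at day 7 and in 9 of 10 at steady state, with medians of -0.73 and -1.51. Ly6c2, which defines the monocyte gate, is 1 of them. The gates also overlapped in Ly6c2 to unlike degrees. Of the class II Mgl2-low cells, 40 of 81 at day 7 and 24 of 110 at steady state held 5 or more Ly6c2 UMIs. Without those cells 319 genes were lower at day 7 and 377 at steady state, against 175 and 269 with them. The part of this overlap in the difference between the libraries was not tested. Of the 348 day 7 monocytes, 23 held 10 or more collagen or 100 or more S100a8 and S100a9 UMIs, against 0 of 88 at steady state. Without such cells in either gate, 141 genes were lower at day 7, against 175 with them. The ratios that follow keep those cells. Hp, haptoglobin, had 356 and 838 CPM at day 7 and 311 and 1042 CPM at steady state, 1.23 lower at day 7 and 1.75 lower at steady state (log2). Vcan, a matrix proteoglycan of monocytes, was 1.94 and 2.26 lower. Plac8 differed by -0.24 at day 7 and by -1.05 at steady state. Ccr2, the receptor that draws monocytes from marrow and blood, was the listed gene with log2 ratios above 0 in both libraries (0.20 and 0.37): 1395 and 1212 CPM at day 7, and 1265 and 981 CPM at steady state. Slpi, a protease inhibitor, had 143 and 542 CPM at day 7 and 52.0 and 628 CPM at steady state, and Osm, a cytokine of the IL-6 family, had 157 and 405 CPM, then 81.2 and 369 CPM.

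Interferon-stimulated genes were lower in class II Mgl2-low cells in 0 of 5 at day 7 (median -0.33) and in 7 of 8 at steady state (median -1.58). Irf7, which amplifies interferon expression, had 58.3 CPM in class II Mgl2-low cells and 83.0 CPM in Ly6c2 monocytes at day 7. At steady state it had 78.0 and 189 CPM. The monocytes' own Irf7 was 1.19 lower at day 7 than at steady state (log2), that of class II Mgl2-low cells 0.42 lower.

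**Figure D2:**
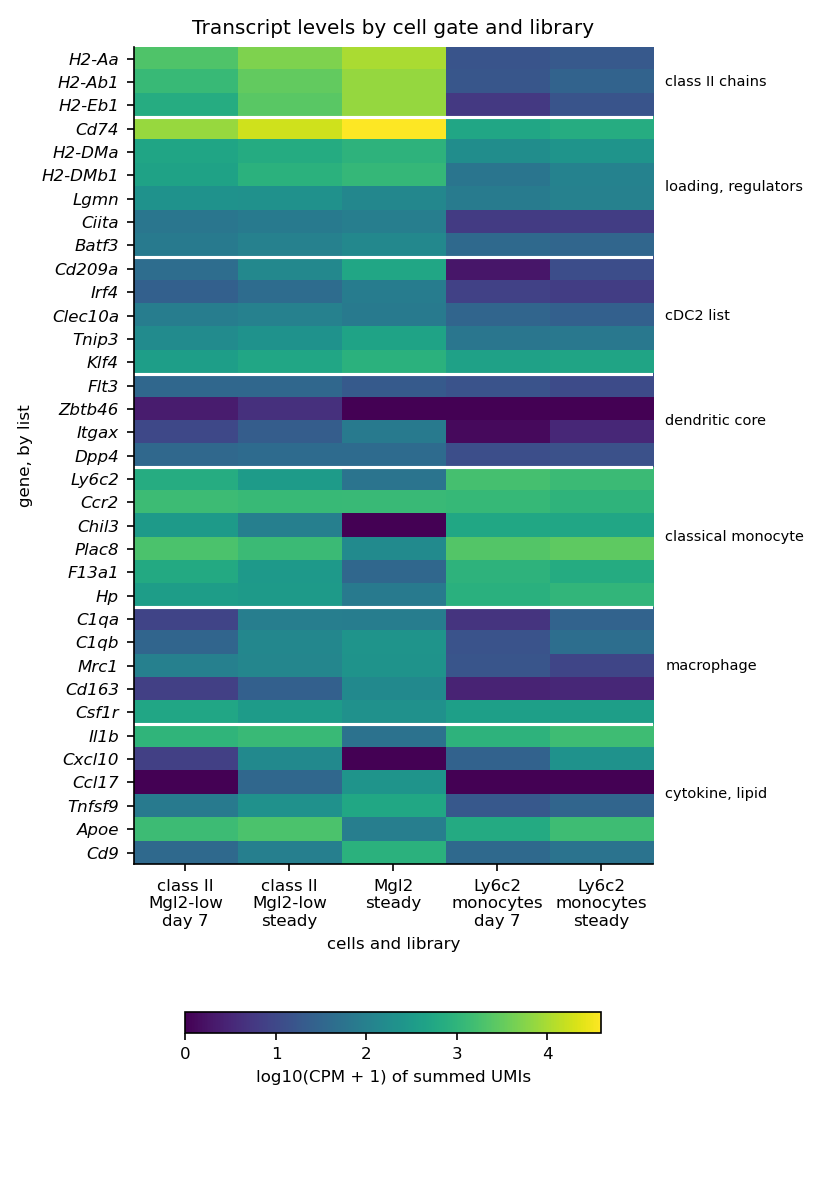
Heat map of expression as log10(CPM + 1) for listed genes (rows), in class II Mgl2-low cells at day 7 and steady state, Mgl2 cells at steady state, and Ly6c2 monocytes at day 7 and steady state (columns). Cd74 and H2-DMb1 are high in the class II Mgl2-low columns and low in the monocyte columns, while Ly6c2 and Hp run the other way.

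Against the 20 Mgl2 cells of steady state, class II Mgl2-low cells had more classical monocyte RNA and less class II RNA. Of 5801 genes, 654 (11.3%) were higher and 702 (12.1%) lower, with a median of -0.02. The Mgl2 side is thin: its deepest cell held 10.5% of its 206613 UMIs and its deepest 3 cells 29.0%. Classical monocyte genes were higher in 8 of 10, with a median of 2.06. F13a1, the transglutaminase factor XIII subunit, had 306 and 33.9 CPM (log2 ratio 3.18, 2.12 to 4.51), and Plac8 had 1368 and 160 CPM. Chil3, the chitinase-like lectin Ym1, had 94.2 and 0 CPM, at least 6.49-fold higher with the empty Mgl2 gate set to 3 UMIs. Over the 112 Mgl2 cells taken by the class II threshold alone, 432 of 5984 genes (7.22%) were higher and 743 (12.4%) lower, with a median of -0.14. Chil3 was 0.52 lower there (log2), so that its direction depends on which Mgl2 cells are compared. Ccr2 was alike, at 1265 and 1302 CPM.

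The largest named excess over Mgl2 cells was in Il1b, the interleukin-1 beta gene, with 1288 and 53.2 CPM (log2 ratio 4.60, 3.75 to 5.60), and in Apoe, a lipid carrier, with 1929 and 92.0 CPM (4.39, 3.74 to 5.13). Ly6c2 monocytes held both at a like level, 1445 CPM of Il1b and 1477 CPM of Apoe. Cebpb, a myeloid transcription factor, had 2430 and 237 CPM, and Thbs1, thrombospondin 1, had 487 and 29.0 CPM. Irf8 had 83.4 CPM and, from 2 UMIs, 9.68 CPM (3.11, 1.20 to 6.18). All 4 compared interferon-stimulated genes were higher, with a median of 2.22.

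The class II chains and Cd74 were lower than in the 20 Mgl2 cells, and type 2 dendritic genes were mixed, with 2 of 7 higher and 2 of 7 lower (median -0.73); over the wider gate of 112 cells 2 were higher and 0 lower (median 0.47). Cd74 had 18522 and 39102 CPM (log2 ratio -1.08, -1.12 to -1.04), and the chains H2-Aa, H2-Ab1 and H2-Eb1 were lower by 1.04, 1.25 and 1.46 (log2). Under the wider Mgl2 definition the median of the 3 chains was 0.042 and Cd74 differed by -0.03 (log2), so the lower class II level holds against the 20 cells that passed all exclusions and not against all 112. Cd209a had 140 and 518 CPM (-1.89, -2.27 to -1.51), but 140 and 101 CPM over the wider gate (0.47, 0.14 to 0.80), so that its direction turned. Tnip3 had 219 and 465 CPM, and 0.63 less over the wider gate (log2), short of the fold. Ccl17, a chemokine of CCR4-bearing T cells, had 32.5 and 242 CPM. Cd9, a tetraspanin, had 96.4 and 862 CPM. Ciita did not pass the fold, at 73.6 and 92.0 CPM (-0.32, -1.07 to 0.50), and over the wider gate it was higher, at 73.6 and 22.9 CPM (1.68, 1.12 to 2.27). Among the 12 lowest genes by the naming rule, every Mgl2-cell UMI of Cd55, Prss23, Tmem100, Has2 and Plat lay in 1 cell, which also held 10 or more collagen UMIs. In the other 19 Mgl2 cells these 5 genes had none.

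Between the groups, class II Mgl2-low cells at day 7 had less RNA of the class II chains, of the C1q chains and of most listed immediate early genes than at steady state, and more of 4 of 10 classical monocyte genes. Of 5776 genes, 374 (6.48%) were higher and 238 (4.12%) lower, and the median gene was 0.15 higher (log2), a shift to be set beside each ratio. In Ly6c2 monocytes 327 of 5660 (5.78%) were higher and 105 (1.86%) lower, with a median of 0.11. The group and the library cannot be told apart.

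The 3 class II chains were lower at day 7, with a list median of -1.36. H2-Aa had 2143 CPM at day 7 and 4965 CPM at steady state (log2 ratio -1.21, -1.29 to -1.13), and H2-Eb1 had 701 and 2625 CPM (-1.90, -2.04 to -1.77). Since the rule demands these chains in both libraries, their absolute level partly follows the threshold. Cd74, outside the rule, was lower by the same order (7516 and 18522 CPM, -1.30), and H2-DMb1 less so (446 and 840 CPM, -0.91). The I-A/I-E antibody medians were 24 and 106, while the summed count per 10000 antibody counts was 593 at day 7 and 1650.5 at steady state. Ciita had 63.4 and 73.6 CPM, an interval of the log2 ratio that spans no change (-0.77 to 0.33), and 0 of 6 compared regulators were called. In Ly6c2 monocytes, where class II was nearly absent, Cd74 was 0.46 lower and H2-DMb1 0.86 lower at day 7 (log2). Cd209a had 43.1 CPM at day 7 and 140 CPM at steady state (-1.70, -2.29 to -1.14), and Ccl17 had 0 and 32.5 CPM.

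Classical monocyte genes were higher at day 7 in 4 of 10 in class II Mgl2-low cells, with a median of 0.74, and in 1 of 10 in Ly6c2 monocytes, with a median of 0.19. Ly6c2 had 706 CPM at day 7 and 335 CPM at steady state in class II Mgl2-low cells (log2 ratio 1.08, 0.87 to 1.28), against 1717 and 1355 CPM in the monocyte gate, which selects on it. Chil3 had 316 and 94.2 CPM in class II Mgl2-low cells (1.74, 1.39 to 2.11) and 537 and 528 CPM in monocytes (0.03, -0.12 to 0.18). Vcan was 2.65 higher in class II Mgl2-low cells and 2.34 higher in monocytes (log2). Both rested on few class II Mgl2-low cells at day 7. Chil3 was found in 22 of 81, with 63 of its 249 UMIs in 1 cell, and Vcan in 23 of 81, with 18 of its 59 UMIs in 1 cell. Thbs1 had 1615 and 487 CPM in class II Mgl2-low cells, and the scavenger receptor gene Msr1 126 and 24.9 CPM. C3, the central complement component, had 280 and 71.5 CPM, the integrin gene Itgal 176 and 46.6 CPM and the coagulation factor gene F10 205 and 57.4 CPM. Msr1, C3, Itgal and F10 were singled out after their values were seen, as genes spread over many cells. In Ly6c2 monocytes these genes were also higher at day 7, by smaller folds: Thbs1 2.00-fold, Msr1 1.54-fold, C3 1.69-fold, Itgal 1.60-fold and F10 1.29-fold.

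The C1q chains were lower at day 7 in both gates, and so were some immediate early genes. Of 9 compared macrophage genes 5 were lower in class II Mgl2-low cells (median -1.97), and of 7 in monocytes also 5 (median -1.69). C1qa, a chain of the complement starter C1q, had 7.61 and 89.9 CPM in class II Mgl2-low cells (log2 ratio -3.56, -5.05 to -2.38), and C1qb had 30.4 and 133 CPM. At steady state C1qa was found in 32 of 110 cells, and 1 cell held 29 of its 83 UMIs. For C1qb 1 cell held 27 of 123 UMIs. The 12 listed macrophage markers outside the rule summed to 850 CPM at day 7 and 942 CPM at steady state in class II Mgl2-low cells, and the part of macrophage RNA in these ratios was not tested. Immediate early and heat shock genes, which also respond to tissue handling, were lower in 9 of 12 in class II Mgl2-low cells (median -1.24) and in 3 of 10 in monocytes (median -0.86). Jun had 115 and 577 CPM (-2.32) and Atf3 298 and 842 CPM (-1.50); in monocytes the same ratios were -2.03 and -1.31. Egr1 was 1.95 lower in class II Mgl2-low cells and 0.09 lower in monocytes (log2). Socs3, the feedback inhibitor of cytokine signalling, had 41.9 and 266 CPM in class II Mgl2-low cells and was 2.95 lower in monocytes (log2). The part of handling in these ratios was not tested.

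**Figure D3:**
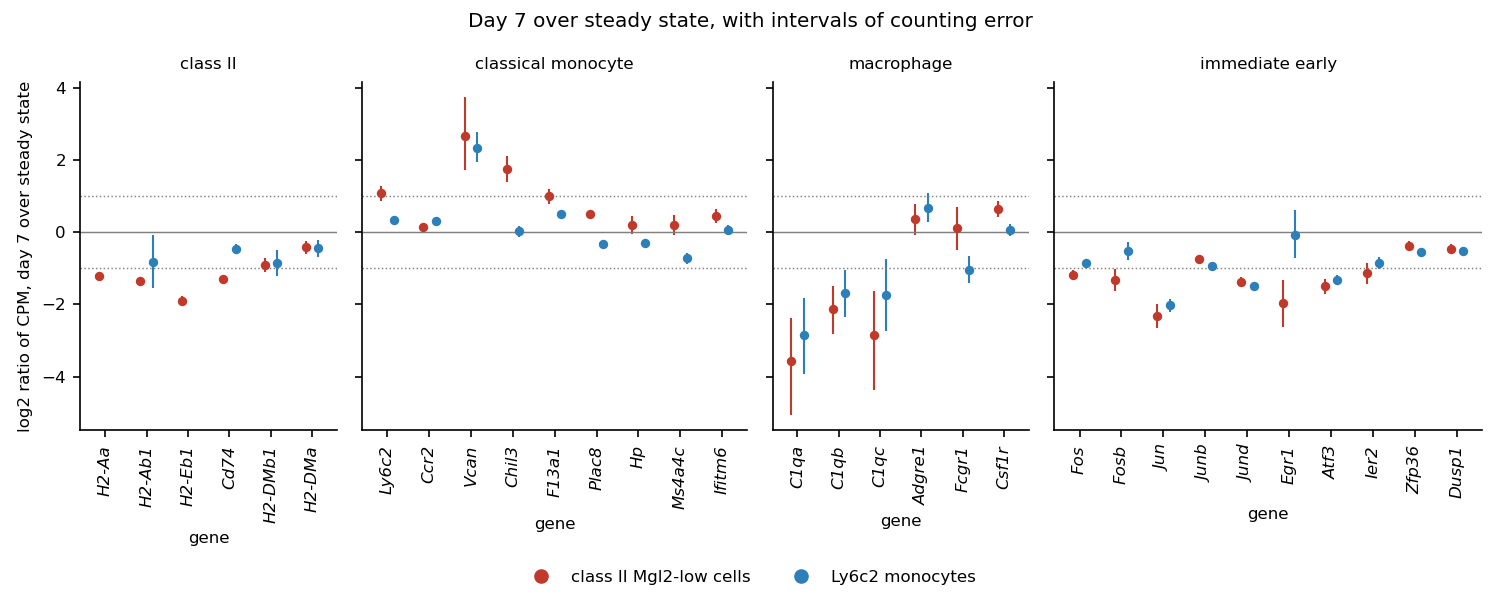
Log2 ratio of day 7 over steady state for listed genes, with 95% intervals of counting error; red marks class II Mgl2-low cells, blue marks Ly6c2 monocytes, and dotted lines stand at a 2-fold difference. Jun, Atf3 and C1qa lie below zero in both gates, while Chil3 is at 1.74 in class II Mgl2-low cells and at 0.03 in monocytes.

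Several of the most extreme ratios between the groups came from 1 cell in each library, those of the neutrophil and collagen genes. At day 7, 1 class II Mgl2-low cell held 1841 of the 1961 UMIs of S100a8 and S100a9, the calprotectin genes of neutrophils and monocytes, and 93.7% of the 2950 UMIs of the neutrophil and progenitor list. At steady state, 1 cell held 1106 of the 1116 collagen UMIs and 98.1% of the 1650 UMIs of the fibroblast list. With all cells, S100a9, S100a8, Ngp and Camp had log2 ratios of 8.33, 7.65, 7.65 and 7.38, and Col1a2, Col1a1 and Col3a1 of -8.51, -6.63 and -6.60. Without those cells S100a9 had 104 and 4.41 CPM (4.55), S100a8 had 51.8 and 5.51 CPM (3.23) and Camp had 45.3 and 2.20 CPM (4.36). Ly6c2 monocytes carried the same neutrophil list at 21875 CPM at day 7 and 108 CPM at steady state. Of the 348 day 7 monocytes, 23 held either 10 or more collagen or 100 or more S100a8 and S100a9 UMIs. In 8 collagen-rich cells of the day 7 library S100a9 stood at 72.1 CPM from 4 UMIs. The part of RNA from other cells in the remaining excess was not tested. Without those cells Ltf and Wfdc21 stood at -0.35 and Col1a1 at 0.23. A group at 0 is set to 3 counts, and in genes left with few UMIs that floor can set the sign. These values are therefore not read as a change of direction.

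**Figure D4:**
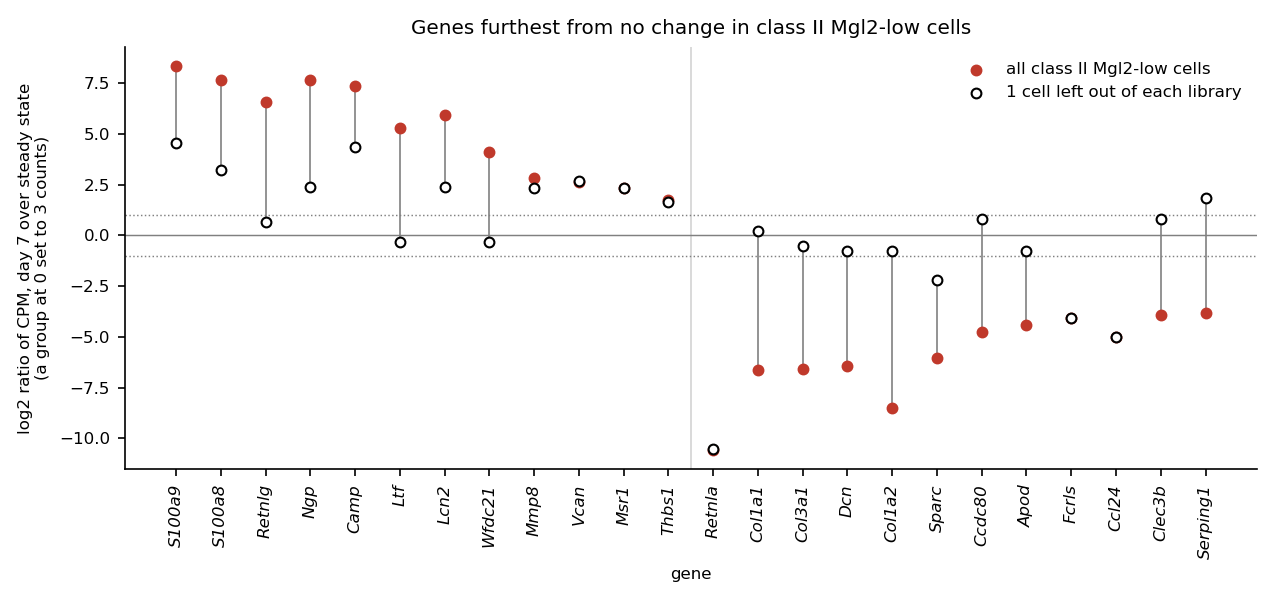
Log2 ratio of day 7 over steady state in class II Mgl2-low cells for the genes chosen by the naming rule, with all cells and with 1 cell left out of each library. S100a9 moves to 4.55 from 8.33 and Col1a1 to 0.23 from -6.63, while Retnla stays near -10.5. A group at 0 is set to 3 counts, which can set the sign of a gene left with few UMIs.

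Retnla, the secreted resistin-like molecule of alternatively activated macrophages, had the lowest ratio of day 7 over steady state among the named genes, with or without those cells. It had 1 UMI at day 7 (1.27 CPM) and 1803 UMIs at steady state (1953 CPM), a log2 ratio of -10.59 (-15.89 to -8.11). At steady state, 11 of 110 cells (10.0%, 5.1% to 17.2%) held 10 or more Retnla UMIs and 99.1% of the total, with up to 592 in 1 cell. These 11 cells were looked at after their values were seen. Their medians were 127 I-A/I-E and 1 Ly6C antibody counts, against 100 and 13 in the other 99, and 5863 against 8993 UMIs. Lyz1, a lysozyme gene, had 2987 CPM in them and 272 CPM in the others, but 1 cell held 177 of its 494 steady-state UMIs. Fcrls, an Fc receptor-like gene of macrophages and microglia, had 671 and 0 CPM, and C1qa had 391 and 57.6 CPM. Plac8 had 0 and 1514 CPM, Il1b had 145 and 1410 CPM, and Klrd1 had 0 and 92.3 CPM. Cd74 was near the same level, at 16007 and 18791 CPM. Ccr2 was also near the same level, at 1197 and 1272 CPM. At day 7 no cell reached 10 Retnla UMIs. Collagen-rich cells of the steady-state library also held Retnla, at 575 CPM, and Mgl2 cells at 4637 CPM.

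Class II Mgl2-low cells also ranged from Ly6c2-bearing to Ly6c2-free. At least 3 Ly6c2 UMIs were found in 53 of 81 cells at day 7 (65.4%) and in 29 of 110 at steady state (26.4%), 1 or 2 UMIs in 17 and 24 cells, and none in 11 and 57. With every cell thinned to 2000 UMIs, which left out 1 cell at day 7 and 10 at steady state, 63.8% of cells at day 7 and 27.0% at steady state had a Ly6c2 UMI, against 86.4% and 48.2% unthinned. Collagen-rich cells, which should lack the gene, had one in 1 of 8 cells at day 7 (median 6573 UMIs) and in 0 of 57 at steady state (median 10839 UMIs), which by 3 counts of the total allows a share of up to 5.26%. The bands are ranges of a continuous count and not cell types.

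At steady state the Ly6C antibody and, in reverse, the I-A/I-E antibody followed the Ly6c2 bands. Median Ly6C antibody counts were 3 in cells with no Ly6c2 UMI, 17.5 with 1 or 2 and 39 with 3 or more, and median I-A/I-E counts were 117, 113.5 and 50. Cd74 had 22238, 18716 and 13924 CPM in the same order. Klrd1 had 143, 82.2 and 12.9 CPM, Cd7 had 111, 98.7 and 3.23 CPM, and Irf4 had 64.8, 37.0 and 16.2 CPM, while Plac8 ran the other way at 283, 1324 and 2700 CPM. Median depth also differed, at 5851, 9620.5 and 10007 UMIs. At day 7 the Ly6C medians were 42, 31 and 37, the I-A/I-E medians 37, 28 and 20, and Cd74 had 8388, 7759 and 7324 CPM. Other monocyte genes did not share the order of Plac8: at steady state Chil3 had 37.8, 193 and 84.0 CPM and Ccr2 had 1166, 1159 and 1466 CPM. Median UMIs of the class II chains were 60, 91 and 59. At day 7 neither the Ly6C antibody nor Plac8 followed the bands. The Spearman correlation of Ly6c2 RNA with Ly6C antibody was 0.33 at day 7 and 0.66 at steady state, and that of Ly6c2 with class II RNA was -0.13 and -0.35 (n = 81 and 110 cells).

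**Figure D5:**
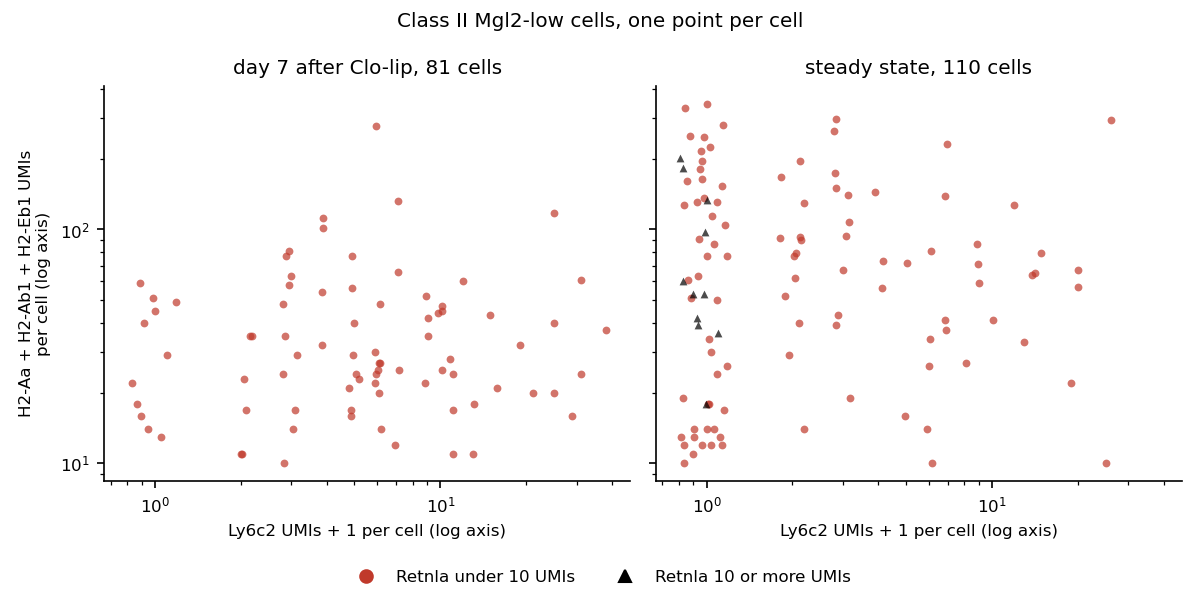
Ly6c2 UMIs plus 1 (jittered) against UMIs of the 3 class II chains in each class II Mgl2-low cell, on logarithmic axes, day 7 on the left and steady state on the right; triangles mark the 11 steady-state cells with 10 or more Retnla UMIs. Of the day 7 cells 53 of 81 hold 3 or more Ly6c2 UMIs, against 29 of 110 at steady state, and the triangles sit at 0 Ly6c2 UMIs.

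Markers of other cell types were few apart from the cells named above. B cell genes summed to 32 UMIs at day 7, of which 24 in 1 cell, and to 18 at steady state. Mast cell and basophil genes had no UMI in 5 of 5 listed genes in either library. Siglech, of plasmacytoid dendritic cells, had 1 UMI at day 7 and 3 at steady state. Xcr1 and Clec9a, the markers of type 1 dendritic cells, summed to 3 and 7 UMIs. Among antibodies, CD55 and CD200r3 were higher at day 7 in class II Mgl2-low cells by 3.39 and 6.25 (log2 of counts per 10000), on median counts of 1 against 0 for CD55 and 2 against 0 for CD200r3. Ly6c2 monocytes showed the same antibody ratios at 3.37 and 5.89.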

How the data were processed

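Per the submitters' processing notes, the authors used Cell Ranger 6.1.2 and the mm10 build; the notes also name Seurat 4.4.0 without its role. The deposited values are raw UMI counts of 32285 genes and 92 antibodies per cell barcode (1277 barcodes at day 7, 1912 at steady state). A cell was kept with 500 or more UMIs, 200 or more genes and no more than 10% of its UMIs from mitochondrial genes. The rule for members was applied to raw counts. Counts were summed per gate and library and scaled to CPM; ratios have conditional exact Poisson 95% intervals, a gate at 0 was set to a floor of 3 counts, and shares have exact Clopper-Pearson intervals. These cover counting error only. The ratio script was tested on simulated data. Origin came from a Gaussian mixture of 2 components on the CD45.2 to CD45.1 antibody ratio (scikit-learn 1.9.0, posterior 0.95). Doublets were called with Scrublet (scanpy 1.11.5). Members, gene lists (243 of 244 genes matched) and rules were chosen with earlier results of these data known. The text names the 12 top and 12 bottom genes of a comparison, ranked on whichever interval bound was closer to a ratio of 1 (over monocytes, the weaker library), genes of the lists, and the antibodies of the sort and of CD45. Alternatives changed the cell filters, thresholds, CPM minimum, weighting and cells included. RefSeq promoters gave the sequences; H2-Ab1 is named only.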

Additional observations from a re-analysis of the deposited data

Results flagged for a closer look

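The collagen genes stood on opposite sides of Ly6c2 monocytes in the libraries, which flagged them as differing between groups. Col3a1 had log2 ratios of class II Mgl2-low cells over Ly6c2 monocytes of -2.49 at day 7 and 6.76 at steady state, and Col1a1 of -2.61 and 7.38. The difference was not tested, since each group is 1 library. At steady state 1 class II Mgl2-low cell held 336 of the 341 Col3a1 UMIs and 346 of the 349 Col1a1 UMIs.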

How the results depend on the processing

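No paired analysis was possible because each group is 1 library and no comparison has a test. The share of class II Mgl2-low cells with a class II threshold of 20 UMIs was 5.12% (62 of 1210) at day 7 and 5.31% (87 of 1637) at steady state. Numbers of genes past 2-fold, higher and lower, were 168 and 175 over monocytes at day 7, 311 and 269 over monocytes at steady state, 654 and 702 over Mgl2 cells, and 374 and 238 at day 7 over steady state. With a minimum of 50 CPM they were 60 and 71, 106 and 122, 254 and 281, and 134 and 92; with no minimum 3507 and 742, 1685 and 1795, 987 and 4265, and 2005 and 1492. With equal weight per cell, 499 were higher over steady-state monocytes and 1064 lower than in Mgl2 cells. Over Mgl2 cells taken by the class II threshold alone, 432 were higher. Without members of 5 or more Ly6c2 UMIs they were 296 and 319 over day 7 monocytes, and 610 and 377 at day 7 over steady state. The other 67 of these summary values stayed within the limits set.
Over all alternatives, 17 values of 10 named genes changed sign, 120 moved and 487 did not move past the limits set. A group at 0 is set to 3 counts, and in genes left with few UMIs that floor can set the sign. Without Scrublet doublets Ltf and Wfdc21 stood at -0.33 (day 7 over steady state, log2). With donor-class cells alone Col1a1, Col1a2 and Serping1 stood at 0.16 and Ccdc80 and Clec3b at 0.74. Without the cells of many collagen or S100a8 and S100a9 UMIs Ltf and Wfdc21 stood at -0.35, Col1a1 at 0.23, Ccdc80 and Clec3b at 0.82 and Serping1 at 1.82. Over the wider Mgl2 gate Chil3 stood at -0.52 and the median of the class II chains at 0.042. Without members of 5 or more Ly6c2 UMIs, Spp1 over day 7 monocytes stood at -0.98, Ngp at -0.20 and Wfdc21 at -0.79. The alternatives that left out cells of off-type RNA or of 5 or more Ly6c2 UMIs, or widened the Mgl2 gate, were chosen after seeing the data. Depth limits low genes: 3 UMIs over all cells of the gate are 3.8 CPM at day 7 and 3.25 CPM at steady state.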
